A study of Mus musculus with 6 samples.

Results

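The 4 TCF/LEF transcription factors and 6 of the proteins that set their activity were followed in TP-DSCs and DP-DSCs, subpopulations of dysplastic stem cells sorted from Meta4 organoids. The genes were taken by symbol, and all 10 had a row among the 23420 genes of the count tables: Tcf7, Tcf7l1, Tcf7l2 and Lef1, the coactivators Bcl9, Bcl9l and Pygo2, the corepressors Tle1 and Tle3, and the inhibitor Ctnnbip1. Meta4 is a mouse epithelial organoid line, and from knowledge of the study, not from the labels, it was grown from dysplastic mouse stomach. By the same knowledge, DP cells were sorted for the surface markers CD133 and CD166, and TP cells for CD44v6 as well. Polyadenylated RNA was sequenced from 3 TP-DSC and 3 DP-DSC libraries of this 1 line, untreated as far as the labels say. All libraries therefore share the line, and a result here describes that line. Whether the samples, called independent in the labels, were separate cultures is not said, so a p-value here is set against sample-to-sample spread that could be technical.

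As background, the Wnt pathway ends in the nucleus on these proteins. TCF/LEF factors bind DNA through an HMG box and, without Wnt signal, carry TLE (Groucho) corepressors that hold target genes down. When beta-catenin accumulates it binds the amino-terminal end of the TCF/LEF factor, and BCL9 or BCL9L links it to a Pygopus protein, which helps to switch the targets on. In the gut epithelium Tcf7l2 is known as the factor that keeps crypt stem cells going, and Tcf7l1 acts mainly as a repressor in stem cells of several tissues.

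Reads in genes numbered from 17015581 to 31068454 in the TP-DSC libraries and from 27027919 to 32671039 in the DP-DSC libraries. Genes with at least 1 read numbered 10571 to 10982 in TP-DSCs and 12504 to 14434 in DP-DSCs. The epithelial markers, among them the keratins Krt8, Krt18 and Krt19, summed to 8334 to 9716 CPM (counts relative to all reads in genes of the library, without further scaling) in TP-DSCs and 8799 to 10692 CPM in DP-DSCs. Gastric mucous markers such as Muc1, Muc6 and Tff2 summed to 234 to 822 CPM in TP-DSCs and 240.0 to 769 CPM in DP-DSCs, and all 10 had reads in some library. The highest sum of each group was that of replicate 1. Both of these libraries carry the number 3840 in their names, taken up below. Tff2 stood at 110 CPM in TP-DSCs replicate 1 and 127 CPM in DP-DSCs replicate 1. In every other library Tff2 had at most 0.979 CPM. Tcf7 and Lef1 are also genes of T cells, so T cell markers were read beside them. Of 13 T cell markers 9 had no read in any library, among them Cd3d, Cd3e, Cd3g, Cd4 and Cd8a, and the list summed to 0 CPM in each TP-DSC library and to at most 0.890 CPM in a DP-DSC library, from Lck, Cd28 and Ptprc in the main.

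Positions are those of GENCODE M21 on GRCm38, the assembly that mm10 names. Tcf7 spans chromosome 11 from 52252371 to 52283014, Tcf7l1 chromosome 6 from 72626378 to 72789254, Tcf7l2 chromosome 19 from 55741820 to 55933654 and Lef1 chromosome 3 from 131110471 to 131224356. Bcl9 (97203662 to 97297917) and Pygo2 (89430214 to 89435128) also lie on chromosome 3. Bcl9l lies on chromosome 9 from 44482825 to 44511896 and Tle3 on the same chromosome from 61372366 to 61418497. Tle1 lies on chromosome 4 from 72117142 to 72200919 and Ctnnbip1 on the same chromosome from 149518236 to 149566437. In that annotation exons of 6 members overlap the span of another gene, introns included, and 2 of those overlapping genes had a row of their own. Cxcr5, opposite Bcl9l, had no read in TP-DSCs and at most 0.0614 CPM in DP-DSCs. Gm15401, antisense to Tcf7l1, had 0, 4.06 and 0 CPM in TP-DSCs replicates 1, 2 and 3, against 0.491, 0 and 0 CPM in DP-DSCs replicates 1, 2 and 3. The library kit keeps strand, but how strand was used in counting is not given in the sources used here.

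The counts are per gene and cannot tell apart transcripts that begin at different starts. That matters for TCF/LEF genes, whose shorter forms without the beta-catenin binding end are known to act against the full-length factor, as the form from the intronic promoter of human LEF1 does. RefSeq start sites were therefore read for the members, and 9 of the 10 matched, with 17 windows of 250 bases before a start. The windows were searched on both strands for the core letters bound by TCF/LEF factors, in the spelling CTTTGAA, the spelling CTTTGAT, the spelling CTTTGTA or the spelling CTTTGTT. Of all 32851 mouse windows of that length 14.8% held at least 1 of these words, and 2 of the members' 17 windows did. Both belonged to a start inside an intron, 1 in Tcf7l2 and 1 in Lef1. A further intronic start of Lef1 and those of Pygo2 and Ctnnbip1 had no word. Some windows of the same gene overlap, at Lef1 and at Pygo2. The 2 windows with a word are shown with the windows at the first start of Lef1 and at the start of Tcf7l1, the member without reads in TP-DSCs. Sequences are from RefSeq on GRCm38.p6, written 5′ to 3′ on the strand of the gene, and capitals mark a match to a core word on either strand.
Tcf7l2 internal start, chr19:55895071-55895320, plus strand: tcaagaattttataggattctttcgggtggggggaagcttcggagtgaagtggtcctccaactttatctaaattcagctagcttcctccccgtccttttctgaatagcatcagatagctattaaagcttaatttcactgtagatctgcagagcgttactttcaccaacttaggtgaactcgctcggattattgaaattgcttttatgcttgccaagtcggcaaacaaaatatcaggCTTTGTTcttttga
Lef1 internal start, chr3:131156044-131156293, plus strand: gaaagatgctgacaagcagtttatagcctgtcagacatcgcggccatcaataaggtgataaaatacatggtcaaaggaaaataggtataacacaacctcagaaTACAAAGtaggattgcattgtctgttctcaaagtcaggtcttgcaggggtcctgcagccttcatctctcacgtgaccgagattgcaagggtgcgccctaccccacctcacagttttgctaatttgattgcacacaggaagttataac
Lef1 first start, chr3:131110047-131110296, plus strand: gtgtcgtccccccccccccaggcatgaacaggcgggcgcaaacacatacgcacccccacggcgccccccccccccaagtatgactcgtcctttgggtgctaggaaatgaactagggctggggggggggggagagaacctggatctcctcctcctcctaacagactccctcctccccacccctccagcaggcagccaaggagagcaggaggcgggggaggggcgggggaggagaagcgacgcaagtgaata
Tcf7l1 start, chr6:72789046-72789295, minus strand: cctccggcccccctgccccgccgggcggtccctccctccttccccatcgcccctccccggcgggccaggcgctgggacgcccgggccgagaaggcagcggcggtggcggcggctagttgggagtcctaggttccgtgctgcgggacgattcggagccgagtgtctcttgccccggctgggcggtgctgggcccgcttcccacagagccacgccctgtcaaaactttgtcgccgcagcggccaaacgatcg
The internal start of Tcf7l2 lies in an intron with 4 exons of its longest coding transcript upstream, and the internal start of Lef1 shown in an intron with 3 exons upstream. The longest coding transcript of Tcf7l1 in GENCODE begins 209 bases before the RefSeq start, inside the window shown. The internal windows shown had a GC content of 40.8% in Tcf7l2 and 44.8% in Lef1, against 72.8% at the first start of Tcf7l2, 66.4% at that of Lef1 and 73.6% at Tcf7l1. The windows at the other intronic starts had 50.8% in Lef1, 76% and 73.2% in Pygo2 and 58% in Ctnnbip1. A match is a description of letters only, and which start the reads of Tcf7l2 and Lef1 came from was not tested.

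Tcf7 was the most abundant TCF/LEF transcript in every library per kilobase of its longest coding transcript. With the mean length of the coding transcripts instead, Tcf7l2 stood above it in TP-DSCs replicate 3, at 22.7 CPM per kilobase for Tcf7l2 and 21.04 for Tcf7, and Tcf7 came first in the other libraries. Tcf7, the factor named TCF1 in T cell work and itself often switched on by Wnt signal, stood at 34.1, 35.2 and 44.3 CPM in TP-DSCs replicates 1, 2 and 3, and at 27.0, 35.4 and 37.6 CPM in DP-DSCs replicates 1, 2 and 3. The groups overlapped, with the highest value in a TP-DSC library and the lowest in a DP-DSC library. In edgeR's quasi-likelihood test over all 11925 tested genes the log2 fold change of Tcf7, TP-DSCs over DP-DSCs, was 0.17 ± 0.28 (SE; adjusted p = 0.999). Of all tested genes 0% passed an adjusted p of 0.05 in this test, with 728 at an unadjusted p under 0.05, and 0 of the 10 members passed. DESeq2 called 93 genes.

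Tcf7l2 had widely spread levels in TP-DSCs and steady levels in DP-DSCs. It stood at 9.06, 22.2 and 59.6 CPM in TP-DSCs replicates 1, 2 and 3, against 16.9, 19.0 and 17.7 CPM in DP-DSCs replicates 1, 2 and 3. TP-DSCs replicate 1 lay below every DP-DSC library and the other TP-DSC libraries lay above all of them, so the groups overlapped. The coefficient of variation of Tcf7l2 was 86.6% in TP-DSCs and 6.10% in DP-DSCs, beside medians over all tested genes of 39.2% in TP-DSCs and 22.2% in DP-DSCs. The log2 fold change was 0.71 ± 0.64 (SE; edgeR adjusted p = 0.999). It turned to -0.21 without TP-DSCs replicate 3, the library with the highest value.

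Tcf7l1, the mainly repressive member of the family, had no read in any TP-DSC library. It had 43, 148 and 129 reads in DP-DSCs replicates 1, 2 and 3, or 1.32, 4.53 and 4.77 CPM. Every TP-DSC library thus lay below every DP-DSC library, which was so for 8.56% of all tested genes and for no other member. With no read in TP-DSCs, Tcf7l1 was tested only because its DP-DSC libraries passed the count filter. For such a gene the filter fixes the separation in advance, so the separation adds nothing to the absence of reads. The 8.56% includes the 387 tested genes without a read in any TP-DSC library. The edgeR and filtered DESeq2 p-values below belong to a gene that entered in this way. A floor of 3 counts over the 3 TP-DSC libraries together is 0.0411 CPM. The pooled DP-DSC level of Tcf7l1, 3.47 CPM, was 84.4-fold above that floor. DP-DSCs replicate 1 stood lower, at 1.32 CPM, which would give a smaller fold. An absence of reads need not mean a level under the floor. The 84.4-fold bound allows for counting error only, since reads are not independent molecules. That bound moves with the reads pooled, to 55.6-fold without TP-DSCs replicate 1 and 48.5-fold without TP-DSCs replicate 3, and for a single library it was 28.8, 19.7 and 35.9-fold in TP-DSCs replicates 1, 2 and 3. Tcf7l1 did not pass in edgeR (unadjusted p = 0.00301, adjusted p = 0.121). It was below an unadjusted p of 0.05 in the lower direction, as were 4.67% of all tested genes. No member was so in the higher direction, where 1.43% of all tested genes were. DESeq2 on the same genes called Tcf7l1 (adjusted p = 0.0174), as it did 0.78% of the genes, and DESeq2 without a count filter called it too (adjusted p = 0.00137), beside 1.76% of the genes. Over all alternatives its adjusted p ranged from 0.00137 to 0.658.

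Loss of reads was common in TP-DSCs at the level of Tcf7l1. Among the 638 genes that averaged 2 to 4 CPM in DP-DSCs, 126 had no read in any TP-DSC library, which is 19.7%. For Tcf7l1 the absence of reads in TP-DSCs and the fewer genes with reads there move together, and the part of one in the other was not tested. Ranges set by DP-DSC levels favour reads in DP-DSCs, so the count was also made the other way. Among the 666 genes that averaged 2 to 4 CPM in TP-DSCs, 6 had no read in any DP-DSC library, which is 0.901%. By single library, 46.2 to 55.6% of the 666 had no read in TP-DSCs and 3.0 to 19.7% had none in DP-DSCs. In bulk RNA, fewer cells with a transcript and less transcript per cell cannot be told apart.

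**Figure D1:**
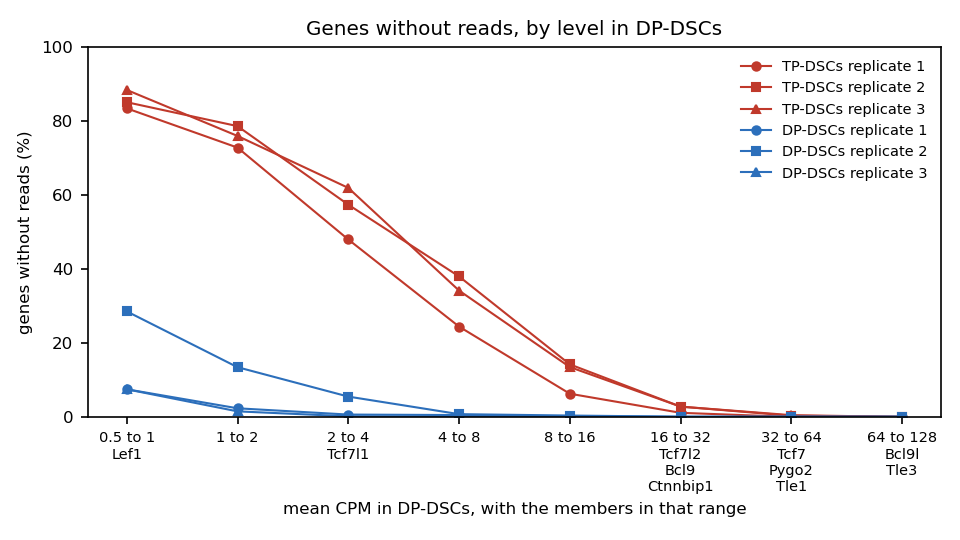
Share of genes without reads (vertical axis, percent) in each library, against the genes' mean CPM in DP-DSCs in doubling ranges (horizontal axis), with the members named under their range; red lines are TP-DSC and blue lines DP-DSC libraries. At 2 to 4 CPM, the range of Tcf7l1, the shares are 48.0, 57.4 and 61.9% in TP-DSCs replicates 1, 2 and 3, and at 16 to 32 CPM, the range of Ctnnbip1, 1.10, 2.78 and 2.78%; the ranges are set by DP-DSC levels, which keeps the blue lines low.

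Lef1, the fourth factor of the family, was scarce in both groups, with a library at or near 0 reads in each. It stood at 3.77, 0 and 2.54 CPM in TP-DSCs replicates 1, 2 and 3 (94, 0 and 79 reads), against 0.0307, 0.704 and 1.70 CPM in DP-DSCs replicates 1, 2 and 3 (1, 23 and 46 reads). The groups overlapped, with both the highest and the lowest value in TP-DSC libraries. The 0 reads of TP-DSCs replicate 2 allow up to 0.176 CPM at 3 counts, by counting error only. Of the 666 genes that averaged 2 to 4 CPM in TP-DSCs, 55.6% had no read in that library. The log2 fold change of Lef1 was 1.41 ± 2.0 (SE; edgeR adjusted p = 0.999), and it lay between 0.0042 and 2.58 over the alternatives.

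Set per kilobase of the longest coding transcript, Tcf7 and Tcf7l2 made up most TCF/LEF signal in each library. The share of Tcf7 in the summed CPM per kilobase of the 4 genes was 79.7, 70.5 and 51.7% in TP-DSCs replicates 1, 2 and 3, against 68.7, 67.8 and 69.0% in DP-DSCs replicates 1, 2 and 3. That of Tcf7l2 was 14.1, 29.5 and 46.2% in TP-DSCs and 28.5, 24.2 and 21.6% in DP-DSCs, in the same replicate order. The share of Tcf7 thus ran in TP-DSCs from the highest of any library to the lowest, and was nearly constant in DP-DSCs, where the other shares varied more. Tcf7l1 made up 2.72 to 7.11% in DP-DSCs and Lef1 at most 6.24% in any library. The sum itself was 17.3, 20.2 and 34.7 CPM per kilobase in TP-DSCs and 15.9, 21.1 and 22.1 in DP-DSCs, in the same replicate order.

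**Figure D2:**
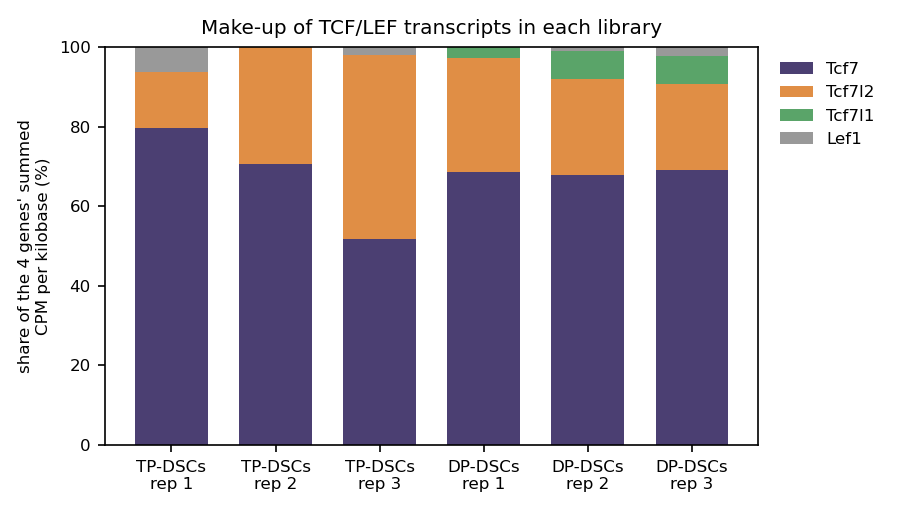
Stacked bars give, for each library, the percentage of the 4 TCF/LEF genes' summed CPM per kilobase that each gene holds (vertical axis, percent; horizontal axis, library). Tcf7 holds 51.7 to 79.7% in the TP-DSC libraries and 67.8 to 69.0% in the DP-DSC libraries, and Tcf7l1 is seen in DP-DSC libraries only, at 2.72 to 7.11%.

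Bcl9 and its paralog Bcl9l, the adaptors between beta-catenin and Pygopus, were both present in all libraries. Bcl9 stood at 26.9, 11.3 and 58.0 CPM in TP-DSCs replicates 1, 2 and 3, against 21.3, 31.1 and 23.7 CPM in DP-DSCs replicates 1, 2 and 3. Bcl9l stood at 84.6, 46.8 and 111 CPM in TP-DSCs and at 103, 116 and 79.8 CPM in DP-DSCs, in the same replicate order. For both genes the lowest library was TP-DSCs replicate 2, and the groups overlapped. The log2 fold change was 0.32 ± 0.57 (SE) for Bcl9 and -0.31 ± 0.33 for Bcl9l, each with an edgeR adjusted p of 0.999. That of Bcl9 turned to -0.34 without TP-DSCs replicate 3 and was 0.73 without TP-DSCs replicate 2. That of Bcl9l was -0.020 without TP-DSCs replicate 2 and -0.55 without TP-DSCs replicate 3. Per kilobase, Bcl9l exceeded Bcl9 in every library, by 2.84, 3.72 and 1.73 times in TP-DSCs and by 4.38, 3.37 and 3.03 times in DP-DSCs, in the same replicate order.

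Pygo2, the widely expressed Pygopus protein, reads methylated histone H3 and binds BCL9 proteins. It stood at 54.5, 69.6 and 77.8 CPM in TP-DSCs replicates 1, 2 and 3, against 48.0, 68.4 and 54.7 CPM in DP-DSCs replicates 1, 2 and 3. The top 2 values were TP-DSC libraries, but TP-DSCs replicate 1 lay within the DP-DSC range. The log2 fold change of Pygo2 was 0.22 ± 0.22 (SE; edgeR adjusted p = 0.999). Its paralog Pygo1 had too few reads to be tested.

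Among the corepressors, which carry the repressed state of TCF/LEF targets, neither Tle3 nor Tle1 separated the groups. Tle3 stood at 93.7, 118 and 95.3 CPM in TP-DSCs replicates 1, 2 and 3, against 85.5, 132 and 99.97 CPM in DP-DSCs replicates 1, 2 and 3. Tle1 stood at 42.1, 58.6 and 47.9 CPM in TP-DSCs and at 64.2, 50.7 and 57.5 CPM in DP-DSCs, in the same replicate order. The log2 fold change was -0.06 ± 0.20 (SE) for Tle3 and -0.24 ± 0.24 for Tle1, each with an edgeR adjusted p of 0.999. Tle3 moved to 0.018 without TP-DSCs replicate 3 and to 0.075 without DP-DSCs replicate 2. The ratio of Tle3 to Tle1 per kilobase was 1.87, 1.69 and 1.67 in TP-DSCs and 1.12, 2.19 and 1.46 in DP-DSCs, in the same replicate order, which overlap.

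Ctnnbip1 encodes ICAT, a small protein that binds beta-catenin and keeps it from TCF/LEF factors. It stood at 10.1, 0 and 20.3 CPM in TP-DSCs replicates 1, 2 and 3, against 14.8, 21.4 and 23.9 CPM in DP-DSCs replicates 1, 2 and 3. TP-DSCs replicate 2 had 0 of 17015581 reads, which allows up to 0.176 CPM by counting error only, and replicate 3 lay within the DP-DSC range. Of the 1280 genes that averaged 8 to 16 CPM in TP-DSCs, 10.2% had no read in TP-DSCs replicate 2. An absence of reads there need not mean a level under that bound. Of the 2090 genes with 16 to 32 CPM on average in DP-DSCs, Ctnnbip1 among them, 2.78% had no read in TP-DSCs replicate 2. The log2 fold change of Ctnnbip1 was -0.996 ± 1.48 (SE; edgeR adjusted p = 0.999). It was -0.41 without TP-DSCs replicate 2 and -1.88 without TP-DSCs replicate 3, and limma-voom gave -2.91 (adjusted p = 0.683).

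**Figure D3:**
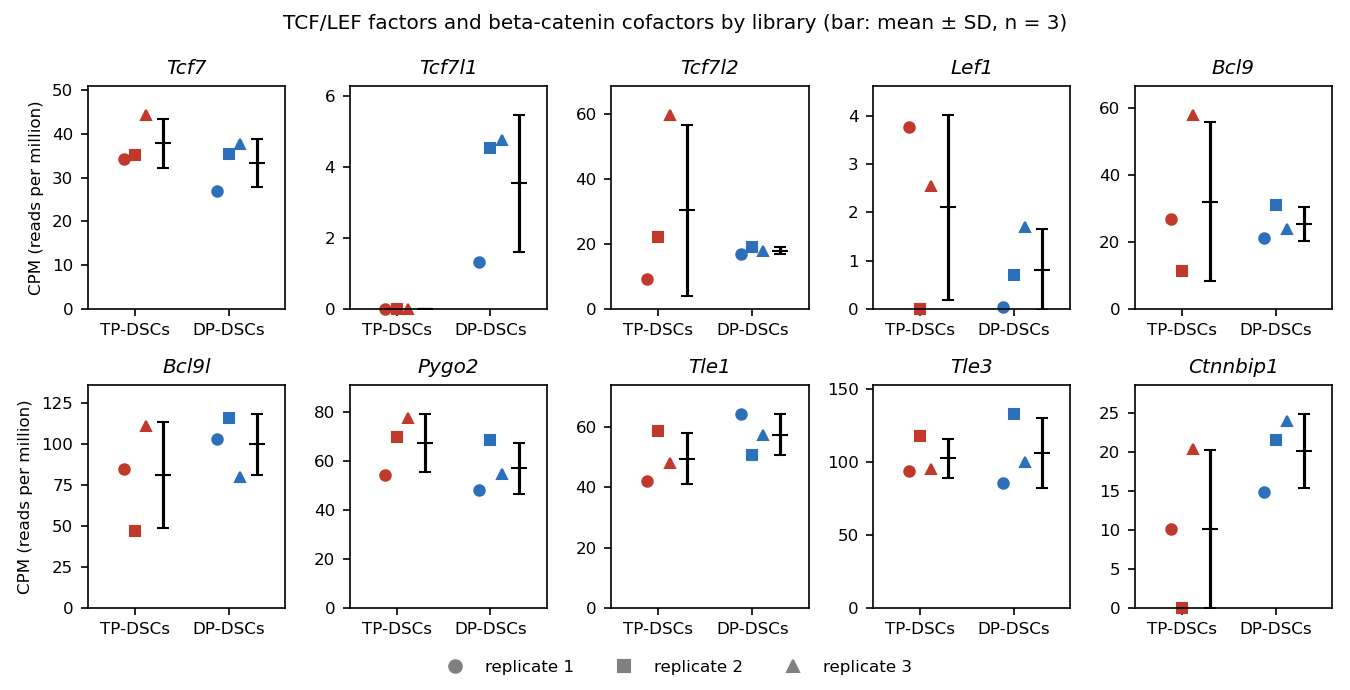
Each panel gives 1 gene's CPM (vertical axis from 0) in the 3 TP-DSC libraries (red, left) and the 3 DP-DSC libraries (blue, right), with the marker shape giving the replicate number and the black bar the mean ± SD, cut at 0 for Lef1 and Ctnnbip1. Tcf7l1 is the panel in which the groups are apart, at 0 CPM in all TP-DSC libraries and 1.32 to 4.77 CPM in DP-DSC libraries; Tcf7l2 runs from 9.06 to 59.6 CPM in TP-DSCs and from 16.9 to 19.0 CPM in DP-DSCs.

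By level per kilobase the members ran in the same broad order in both groups. In TP-DSCs Pygo2 (21.0 ± 3.70 CPM per kilobase; SD, n = 3) and Tle3 (19.6 ± 2.58) came first, followed by Tcf7 (15.3 ± 2.26), Bcl9l (11.9 ± 4.77), Tle1 (11.3 ± 1.91), Tcf7l2 (8.15 ± 7.06), Bcl9 (5.25 ± 3.89), Ctnnbip1 (3.79 ± 3.79) and Lef1 (0.604 ± 0.552), with Tcf7l1 at 0. In DP-DSCs the order was Tle3 (20.4 ± 4.62), Pygo2 (17.8 ± 3.25), Bcl9l (14.7 ± 2.71), Tcf7 (13.5 ± 2.26), Tle1 (13.2 ± 1.55), Ctnnbip1 (7.50 ± 1.76), Tcf7l2 (4.81 ± 0.294), Bcl9 (4.15 ± 0.836), Tcf7l1 (1.16 ± 0.634) and Lef1 (0.233 ± 0.241). In TP-DSCs the libraries of neighbours in this order overlapped except between Tle3 and Tcf7. In DP-DSCs they were apart between Tle1 and Ctnnbip1, between Ctnnbip1 and Tcf7l2, and between Bcl9 and Tcf7l1. With the mean length of a gene's coding transcripts in place of the longest, 7 of the 10 members changed rank in TP-DSCs, Tle3 came first in both groups, and Lef1 and Tcf7l1 stayed in the last 2 places.

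The 10 members together gave 5 positive and 5 negative log2 fold changes with a median of 0.05, beside a median of -0.02 and 48.2% positive over all tested genes. No member had its 3 TP-DSC values all above its 3 DP-DSC values, as 3.87% of all tested genes did. TP-DSCs replicate 2, the library with the fewest reads in genes, was the lowest of the 6 for Lef1, Bcl9, Bcl9l and Ctnnbip1, and the part of its depth in those values was not tested. The standard errors show how wide the estimates were. They ran from 0.20 (Tle3) to 2.0 (Lef1) on the log2 scale, apart from Tcf7l1, whose fitted fold change has no meaning with 1 group at 0.

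**Figure D4:**
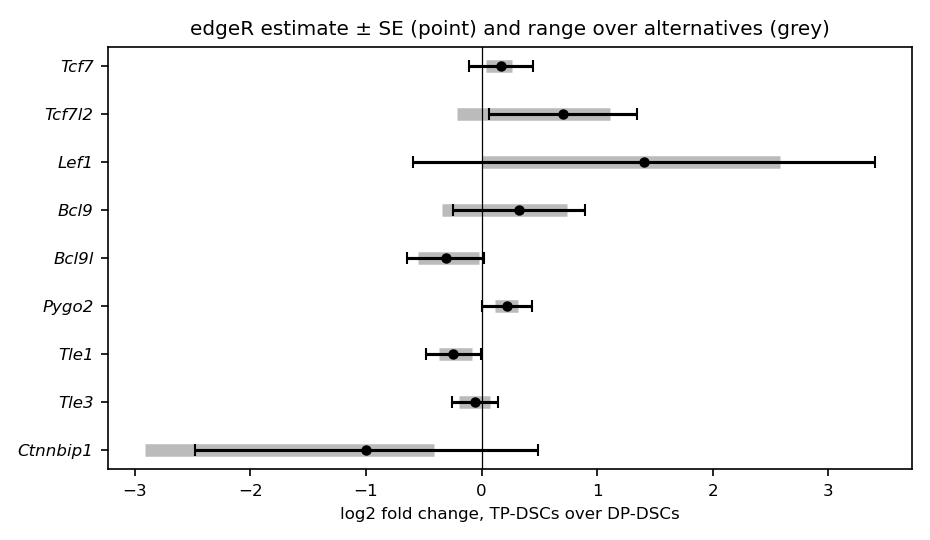
Points give the edgeR log2 fold change, TP-DSCs over DP-DSCs (horizontal axis), with its standard error for the 9 members with reads in both groups, and grey bands the range over all alternatives tried. The estimates lie between -0.996 (Ctnnbip1) and 1.41 (Lef1), and the grey bands of Tcf7l2, Bcl9 and Tle3 cross 0.

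The library names carry the numbers 3840 and 4140, whose meaning the labels do not give. Number 3840 held 1 library of each group and number 4140 held 2 of each, so the difference of mean log2 CPM (TMM-scaled, prior count 2) was taken within each. It had the same sign in both for 6 of the 10 members, Tcf7, Tcf7l1, Bcl9l, Pygo2, Tle1 and Ctnnbip1. The share of all tested genes with the same sign in both was not computed, so this count is a description only. Pygo2 was the closest, at 0.21 within 3840 and 0.23 within 4140. Tcf7l2 went opposite ways, at -0.86 within 3840 and 0.94 within 4140, and so did Lef1, at 5.30 and -1.44 in the same order. Bcl9 (0.37 and -0.12) and Tle3 (0.16 and -0.16) also changed sign. These signs depend on the measure. In the edgeR fit of 4140 alone the log2 fold change was 0.29 for Bcl9 and 0.0042 for Lef1, both positive. Tcf7l2 (1.09) and Tle3 (-0.18) kept in that fit the sign given here for 4140. In edgeR's interaction test of group with number, which has 2 residual degrees of freedom, 0 of all tested genes passed, and the adjusted p was 0.976 for both Tcf7l2 and Lef1. The single pair of 3840 has no replicate check.

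**Figure D5:**
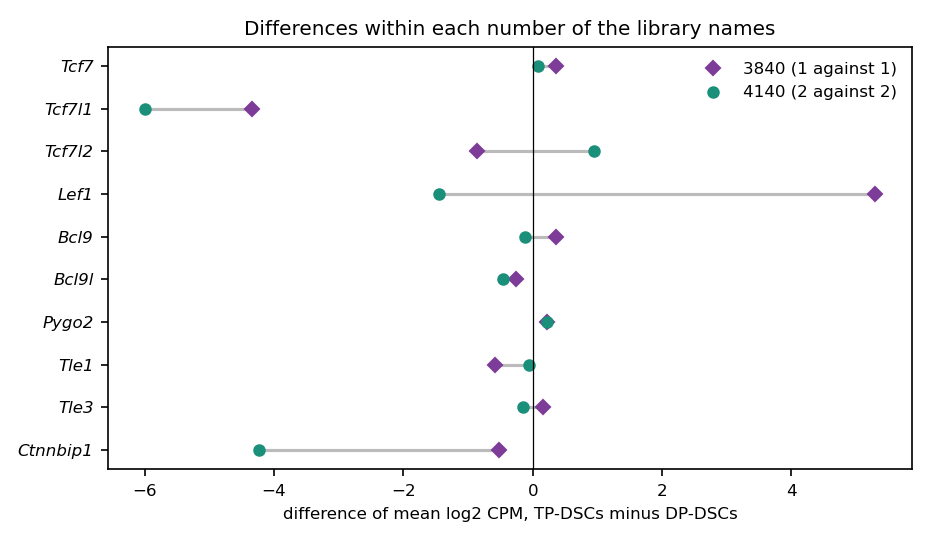
Each member's difference of mean log2 CPM, TP-DSCs minus DP-DSCs (horizontal axis), within number 3840 (diamonds, 1 library against 1) and within number 4140 (circles, 2 against 2). Tcf7l1 lies at -4.33 and -6.00, on the same side of 0 in both, while Tcf7l2 (-0.86 and 0.94) and Lef1 (5.30 and -1.44) lie on opposite sides. Tcf7l1 has no read in any TP-DSC library, so the size of its differences depends on the prior count of 2.

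Other genes of the same families and of the nuclear end of the pathway were then read from the same fit. Of 5 further TLE and Pygopus genes 4 were tested, with 1 above and 3 below 0, a median of -0.07 and none past the threshold. Tle2, another Groucho corepressor, stood at 14.7, 26.1 and 24.1 CPM in TP-DSCs replicates 1, 2 and 3, against 12.9, 11.8 and 6.70 CPM in DP-DSCs replicates 1, 2 and 3. All TP-DSC values of Tle2 lay above all DP-DSC values, as in 3.87% of all tested genes. Its log2 fold change was 1.02 ± 0.55 (SE, edgeR adjusted p = 0.999). Aes, the short family member now called Tle5, stood at 439 ± 34.3 CPM in TP-DSCs and 457 ± 20.2 CPM in DP-DSCs (SD, n = 3 each). Tle4 averaged 3.08 ± 1.36 CPM in TP-DSCs and 3.37 ± 4.07 CPM in DP-DSCs, and Tle6 0.949 ± 1.64 CPM in TP-DSCs and 2.27 ± 1.08 CPM in DP-DSCs.

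Of 31 other nuclear partners and modifiers of beta-catenin 29 were tested, with 15 above and 14 below 0, a median of 0.01 and none past the threshold. The smallest p-values belonged to Ruvbl2, Kdm2a, Mll2 and Chd8. Ruvbl2 (reptin), an ATPase that binds beta-catenin, averaged 69.2 ± 15.6 CPM in TP-DSCs and 107.5 ± 26.9 CPM in DP-DSCs, with a log2 fold change of -0.65 ± 0.25 (SE; edgeR adjusted p = 0.661). Kdm2a, a histone demethylase, averaged 112 ± 9.18 CPM in TP-DSCs and 150.3 ± 41.0 CPM in DP-DSCs, with every TP-DSC library below every DP-DSC library. Chd8, a chromatin remodeler that represses beta-catenin targets, averaged 50.6 ± 12.2 CPM in TP-DSCs and 69.1 ± 16.05 CPM in DP-DSCs. Mll2, as the files spell it, averaged 167 ± 71.8 CPM in TP-DSCs and 104.8 ± 25.9 CPM in DP-DSCs. In all, 0 of these 29 genes had the TP-DSC libraries above and 2 had them below, beside 3.87% above and 8.56% below over all tested genes.

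The 14 genes of the beta-catenin destruction complex and its regulators had 4 above and 10 below 0, a median of -0.13 and none past the threshold, beside 48.2% above 0 and a median of -0.02 over all tested genes. In 4 of the 14 every TP-DSC library lay below every DP-DSC library, as in 8.56% of all tested genes, namely in Fbxw11, Dvl3, Gsk3a and Dvl2. Fbxw11, a ubiquitin ligase subunit that recognises phosphorylated beta-catenin, stood at 83.0, 78.9 and 78.9 CPM in TP-DSCs replicates 1, 2 and 3, against 97.99, 109 and 114 CPM in DP-DSCs replicates 1, 2 and 3. Its log2 fold change was -0.43 ± 0.18 (SE; edgeR adjusted p = 0.788). The Dishevelled gene Dvl3, which relays the receptor signal, averaged 30.3 ± 6.04 CPM in TP-DSCs and 47.5 ± 10.3 CPM in DP-DSCs, and Dvl2 22.8 ± 3.33 CPM in TP-DSCs and 33.4 ± 4.48 CPM in DP-DSCs. The kinase gene Gsk3a averaged 96.9 ± 12.6 CPM in TP-DSCs and 117 ± 15.2 CPM in DP-DSCs.

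Of 39 Wnt ligand, receptor and secretion genes 23 were tested, with 14 above and 9 below 0, a median of 0.07 and none past the threshold. Like Tcf7l1, the receptor gene Fzd9 and the ligand gene Wnt5b had no read in any TP-DSC library, and they averaged 2.80 ± 0.592 CPM and 0.879 ± 0.174 CPM in DP-DSCs (SD, n = 3). Of all 11925 tested genes, 387 had no read in any TP-DSC library. The coreceptor gene Lrp6 averaged 155 ± 42.2 CPM in TP-DSCs and 118 ± 15.3 CPM in DP-DSCs, and Wls, needed for Wnt secretion, 193 ± 19.6 CPM in TP-DSCs and 241 ± 34.4 CPM in DP-DSCs. Of 24 Wnt target genes, with Tcf7 and Lef1 left out since they are members, 19 were tested, with 9 above and 10 below 0, a median of -0.09 and none past the threshold. Prox1, a homeobox factor, stood at 43.3, 40.9 and 51.4 CPM in TP-DSCs replicates 1, 2 and 3, against 19.1, 28.6 and 29.1 CPM in DP-DSCs replicates 1, 2 and 3, without overlap (edgeR adjusted p = 0.580). All TP-DSC values lay above all DP-DSC values in 3.87% of all tested genes. Notum, a secreted enzyme that inactivates Wnt ligands, stood at 28.9, 38.8 and 99.8 CPM in TP-DSCs and at 70.3, 82.6 and 163 CPM in DP-DSCs, in the same replicate order, with overlap. Ephb3, a receptor that sorts crypt cells, averaged 42.4 ± 9.16 CPM in TP-DSCs and 59.8 ± 9.02 CPM in DP-DSCs. Apcdd1, a membrane inhibitor of Wnt signal, stood at 0, 0 and 0.0644 CPM in TP-DSCs replicates 1, 2 and 3, against 2.7, 3.49 and 14.8 CPM in DP-DSCs replicates 1, 2 and 3. Its TP-DSC values all lay below its DP-DSC values, as in 8.56% of all tested genes (edgeR adjusted p = 0.147).

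Genes with a pattern like that of Tcf7, the TCF/LEF member of highest mean CPM, were sought among the 9520 other tested genes with reads in all 6 libraries. By Pearson's r of log2 CPM over the 6 libraries the most alike were Gps2 (0.995), D630003M21Rik (0.993) and Xrn2 (0.981). The 6 libraries share 1 cell line, and over so few points and so many genes these values are a description only. Gps2 stood at 29.5, 30.4 and 35.6 CPM in TP-DSCs replicates 1, 2 and 3, against 25.8, 31.1 and 31.5 CPM in DP-DSCs replicates 1, 2 and 3.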

How the data were processed

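RNA of 3 TP-DSC and 3 DP-DSC samples was sequenced with a stranded kit that selects polyA RNA, by the labels' protocols. As deposited by the authors, the files hold raw read counts per gene symbol, whole numbers with different totals. The submitters' processing notes name STAR 2.7.3a, Partek, DESeq2 3.5 and mm10. The sources used here give neither the counting tool nor its annotation or strand setting. The rows for reads in no gene (14.1 to 20.3% of all reads) and ambiguous reads (1.09 to 1.86%) were left out.

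Levels are CPM, the count over all gene reads. Tests used edgeR 4.0.16 in R 4.3.3 (filterByExpr with minimum count 10 and minimum total 15, TMM, quasi-likelihood F test, group as the only term) over 11925 genes with Benjamini-Hochberg adjustment at 0.05. The standard error is the log2 fold change over the square root of F. TMM differed between groups by 0.015 (log2). Alternatives were other scalings, filters, DESeq2 1.42.0, limma-voom (limma 3.58.1), the number in the library names as a block or 4140 alone, and leaving out each library. DESeq2 without a count filter was added after seeing the data. The code was tested on simulated data. Transcript lengths came from GENCODE M21 and start sites from RefSeq (GRCm38.p6).

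Replicates are numbered in accession order. The members and lists were chosen with earlier results of these data known. Text names all members, up to 4 genes per other Wnt list by p, up to 3 markers per list by CPM, and the 3 genes most like Tcf7. Macrophage, fibroblast and endothelial lists summed to 0 to 17.3, 2.69 to 8.35 and 17.1 to 23.3 CPM in TP-DSCs, and to 7.68 to 48.7, 0.704 to 3.19 and 18.0 to 47.0 CPM in DP-DSCs. In that order, 3 of 8, 6 of 10 and 2 of 8 markers were at 0 in all libraries. Emr1, Col1a2, Col3a1 and Pecam1 were among them. Leading genes of these lists were Cd68, Mrc1 and Csf1r, then Postn, Pdgfra and Col1a1, then Esam, Flt1 and Tek. Cd68 stood at 0 to 17.3 CPM in TP-DSCs and 5.14 to 47.3 CPM in DP-DSCs. Postn stood at 8.35 CPM in TP-DSCs replicate 2 and 0 elsewhere. Col1a1 stood at 0 to 0.0401 CPM in TP-DSCs and 0.704 to 2.64 CPM in DP-DSCs. Esam stood at 7.05 to 13.7 CPM in TP-DSCs and 11.2 to 34.0 CPM in DP-DSCs.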

Additional observations from a re-analysis of the deposited data

How the results depend on the processing

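With DESeq2 as the test, 93 genes were called over the whole table, 7 higher and 86 lower in TP-DSCs, and 1 member, Tcf7l1 (adjusted p = 0.0174). With DESeq2 on genes without a count filter, added after seeing the data, 267 genes were called and 1 member, again Tcf7l1 (adjusted p = 0.00137). In edgeR under every other alternative and in limma-voom 0 genes were called, with 619 to 1811 genes at an unadjusted p under 0.05 in the fits without 1 library. Direction changed in 4 of 160 member values. Without TP-DSCs replicate 3, Tcf7l2 turned to -0.21, Bcl9 to -0.34 and Tle3 to 0.018 (log2), and without DP-DSCs replicate 2 Tle3 turned to 0.075. In the fits without 1 library Tcf7l2 ranged from -0.21 to 1.11, Bcl9 from -0.34 to 0.73 and Tle3 from -0.19 to 0.075. In the fits without 1 library 0 genes and 0 members were called. The count of 6 members with the same sign within both numbers of the library names held under every scaling, but it was not set beside a share over all tested genes. It also rests on mean log2 CPM, and the edgeR fit of 4140 alone gave Bcl9 and Lef1 the other sign within 4140. With mean transcript length, 7 members changed rank. No paired analysis was possible because replicates are numbered in accession order, which pairs nothing; with the number in the library names as a block instead, 0 genes were called and the log2 fold change of Tcf7l2 was 0.48. In the TP-DSC libraries 3 counts correspond to 0.0966 to 0.176 CPM, which bears on Tcf7l1, Lef1 and Ctnnbip1, the members with a TP-DSC library at 0 reads.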
